A study of Homo sapiens with 14 samples.

Results

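HepG2 and Hep3B are established lines from human liver tumours. Adding polyethylene glycol 300 (PEG) to their medium gave changes in gene expression that were compared gene by gene between the lines. HepG2, labelled a hepatoblastoma line, had been kept on culture dishes for 5 days in isotonic medium or in medium with 4% PEG. Hep3B, labelled a hepatocellular carcinoma line, had been kept on transwells (inserts whose floor is a porous membrane), uncompressed or with 3% PEG, for a time that is not given in the sources used here. Both lines are labelled wild type, and each stands for 1 tumour. Each of these 4 groups has 2 libraries, so the comparison rests on 8 of the 14 libraries of the series. It was read in all genes that reached 1 CPM (counts per 1e6 counts) in at least 2 of the 8, which left 15774 of 56479. The quantity compared is the log2 fold change with PEG in Hep3B minus that in HepG2, called the line difference here. It is positive where a gene rose more, or fell less, in Hep3B. PEG strength, culture surface and possibly time and sequencing run go with the line, so that a difference between lines, doses or surfaces cannot be told apart in these data.

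PEG is a small solute that raises the osmolarity of the medium and draws water out of cells, which shrinks and crowds their contents. Shrunken cells are known to take up ions and then to gather organic solutes such as inositol, taurine and sorbitol, through transporters and enzymes that the transcription factor NFAT5 turns on. Strong or lasting hyperosmotic stress can also stop the cell cycle, slow the making of proteins and turn on the stress factor ATF4, which drives genes for amino acid uptake and synthesis. HepG2 has a working p53 and RB1, which brake the cell cycle, and Hep3B is known to lack both.

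The labels held up against genes that part the lines. RB1, which holds back entry into S phase, stood at 137 and 104 CPM in isotonic medium and 154 and 119 CPM in 4% PEG in HepG2 and at 2.76 and 2.66 CPM uncompressed and 4.09 and 5.02 CPM in 3% PEG in Hep3B. All 7 hepatic markers checked, among them albumin (ALB) and the nuclear receptor HNF4A, were present in every library. Of 24 markers of blood, vessel, fibroblast and muscle cells, 10 were below the filter. The 24 summed to between 41.5 and 74.0 CPM in Hep3B and to between 586 and 4898 CPM in HepG2, nearly all of it LYZ, a lysozyme gene. Without LYZ, PDGFRA and PDGFRB, the 3 called for the line difference, the sum lay between 12.9 and 74.6 CPM in all 8 libraries. PTPRC, CD3E, KDR and DCN, which define blood, T, vessel and fibroblast cells, were at or near 0. Other markers on the list had reads. In HepG2 in 4% PEG the vessel gene PECAM1 reached 11.7 CPM, the blood cell gene CD68 11.4 CPM and the muscle gene ACTA2 32.5 CPM. The fibroblast gene LUM reached 16.9 CPM in Hep3B in 3% PEG. Low PTPRC, CD3E, KDR and DCN therefore do not show that such cells were absent. The part of other cells in the results was not tested. Libraries held 21.2 M to 35.4 M counts, and 1.00% to 7.34% of them came from the mitochondrial genome, most in HepG2 in 4% PEG. Replicates of the dish groups lay further apart, with a biological coefficient of variation of 0.298 against 0.0490 for the transwell groups. The fit of all 8 libraries therefore overstates the spread of Hep3B and understates that of HepG2. A line's list counts, and its calls for some single genes, are also given from a fit of its own 4 libraries.

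PEG moved many more genes in HepG2 than in Hep3B by the spread of the 8 libraries. In HepG2, 6459 genes (40.9% of those tested) passed an adjusted p of 0.05 by the quasi-likelihood test of edgeR, with p-values adjusted after Benjamini and Hochberg over all 15774 genes, the test used throughout and meant by "called". They were 3351 that rose (21.2%) and 3108 that fell (19.7%). In Hep3B 2227 were called (14.1%), of which 1132 rose (7.18%) and 1095 fell (6.94%). The order of the counts depends on the spread used. From its own 4 libraries, HepG2 gave 1742 rises (11.0%) and 1593 falls (10.1%), and Hep3B 4624 rises (29.3%) and 5016 falls (31.8%). The sizes are on the same scale in either fit: the median absolute log2 fold change was 0.66 in HepG2 and 0.39 in Hep3B, and the standard deviation over genes was 1.58 and 0.96.

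The line difference was called in 2738 genes (17.4%), 1363 positive (8.64%) and 1375 negative (8.72%). In all 2738, the 4 PEG-minus-control differences between single libraries of one line lay beyond those of the other. This separation adds no support to the 2738 genes, since the same libraries gave the calls. Of these genes, 1914 were called in HepG2 alone among the single-line effects, 334 in Hep3B alone and 75 in neither. Another 217 were called in both lines in the same direction, 186 of them with the larger change in HepG2, and 198 (1.26% of all genes tested) in opposite directions. With each line's own spread, the genes called in opposite directions came to 439 and those called in HepG2 alone to 650, so the shares depend on the spread used. The total came to 2633 with limma voom, which weights the lines by their own spread, and to between 1064 and 1087 when any 1 of the 4 Hep3B libraries was left out. Scaling by total counts in place of TMM shifted the median difference of all genes from -0.02 to -0.28 and gave 1029 positive and 2173 negative calls. It gave 5107 rises and 2057 falls in HepG2, and 1454 rises and 952 falls in Hep3B.

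**Figure D1:**
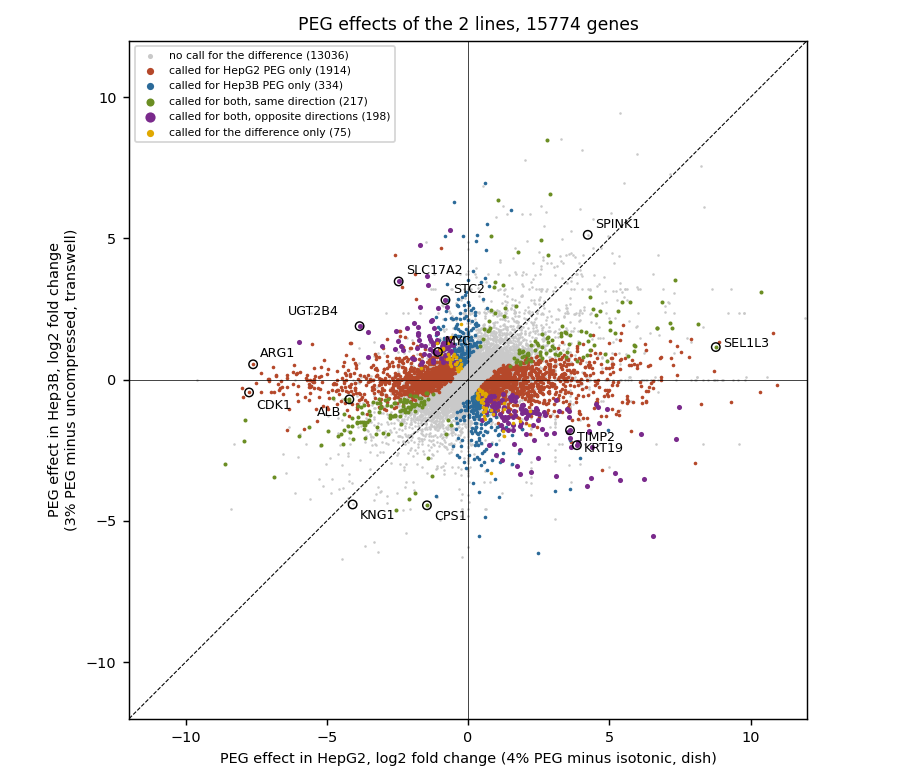
Each point is 1 of 15774 genes, with the log2 fold change with PEG in HepG2 on the x axis and in Hep3B on the y axis, and colours give the calls. Genes on the dashed line changed equally; the cloud is wider along the HepG2 axis (standard deviation 1.58 against 0.96), and the 198 genes called in opposite directions fill the upper left and lower right. Genes with no count in a group carry fitted values that depend on the prior count.

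The effects of the lines, which share no library, were correlated across genes at Pearson r = 0.324 and Spearman rho = 0.352 (15774 genes, which are not independent replicates). Both lines called 1315 genes, 1117 of them in the same direction (624 up and 493 down). For 900 of the 1117 the line difference was not called, which does not show that the changes were equal, since the 95% interval of the difference had a median half-width of 0.91 on the log2 scale. The gene lists below are described by how many members were called and by their medians, beside medians over all genes tested of -0.02 for the line difference, 0.02 for HepG2 and -0.02 for Hep3B. Among all genes tested, 8.64% were called positive and 8.72% negative for the line difference. In HepG2 21.2% rose and 19.7% fell, and in Hep3B 7.18% and 6.94%. By a line's own spread these shares were 11.0% and 10.1% in HepG2 and 29.3% and 31.8% in Hep3B. Every list count is to be read beside these shares. Values by library follow for genes taken by a fixed rule. Wherever one of them was called in a line, its 2 treated libraries lay entirely above or entirely below its 2 control libraries. That adds no support to a call, since the same libraries gave it.

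**Figure D2:**
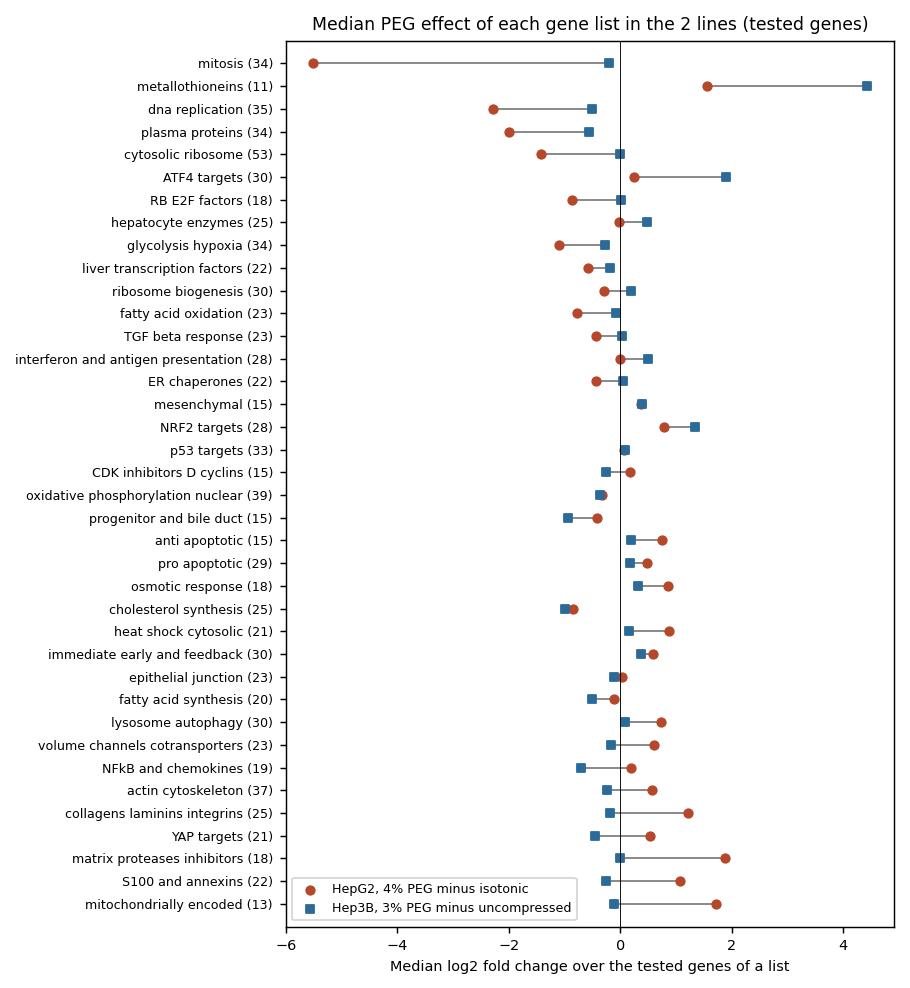
Median log2 fold change with PEG over the tested genes of each list (number in brackets), as circles for HepG2 and squares for Hep3B, ordered by the median line difference. Mitosis genes stand farthest apart (-5.51 in HepG2, -0.20 in Hep3B); cholesterol synthesis genes lie together at -0.85 and -0.99.

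The widest gap was in the genes of cell division. All 34 mitosis genes tested were called for the line difference, and all were positive, against 8.64% of all genes: they fell in HepG2 and stayed close to their control level in Hep3B. Their median log2 fold change was -5.51 in HepG2, where all 34 fell in either fit, and -0.20 in Hep3B, where none was called in the fit of 8 libraries. By Hep3B's own spread 19 of the 34 fell and 3 rose, against 31.8% and 29.3% of all genes, but the range of their Hep3B changes was only -0.63 to 0.27. The changes in HepG2 ran from -7.97 to -2.18. Summed over the list, the level was 4117 and 2383 CPM in isotonic HepG2 and 129 and 85.0 CPM in 4% PEG, while in Hep3B it was 5473 and 5842 CPM uncompressed and 4963 and 5018 CPM in 3% PEG. In bulk RNA, fewer dividing cells and less of these RNAs per cell cannot be told apart.

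CDK1 (ENSG00000170312, chromosome 10, 60778331 to 60794852 of GRCh38), the kinase that drives entry into mitosis, stood at 98.0 and 74.2 CPM in isotonic medium and 0.600 and 0.178 CPM in 4% PEG in HepG2, and at 139.9 and 137 CPM uncompressed and 103 and 99.1 CPM in 3% PEG in Hep3B. The HepG2 groups lie far apart and the Hep3B groups closer together, without overlap. Its change was -7.75 ± 0.42 in HepG2 (log2 ± SE, adjusted p = 3.85e-05) and -0.45 ± 0.27 in Hep3B (adjusted p = 0.315, and 3.2e-10 by that line's own spread). The line difference was 7.30 ± 0.50 (95% interval 6.13 to 8.47, adjusted p = 0.000289). MKI67, the proliferation marker Ki-67 that coats mitotic chromosomes, was read at 312 and 174 CPM in isotonic medium and 2.63 and 1.03 CPM in 4% PEG in HepG2, against 286 and 381 CPM uncompressed and 305 and 343 CPM in 3% PEG in Hep3B, where the groups overlap, and its line difference was 7.00 ± 0.58. TOP2A, which untangles DNA, went from 1064 and 540.3 CPM to 7.00 and 1.78 CPM in HepG2, whereas the 4 Hep3B libraries lay between 916 and 1014 CPM. TOP2A was still called in Hep3B by that line's own spread (adjusted p = 0.0166). Its line difference of 7.38 ± 0.75 was among the 8 largest that were positive. So were those of MYBL2 (7.71 ± 0.65), a factor that turns on mitotic genes, DLGAP5 (7.34 ± 0.80), which steadies spindle fibres, and DEPDC1 (7.57 ± 0.91), another gene of dividing cells. The mitotic kinase PLK1, the spindle motor KIF2C and the ubiquitin enzyme UBE2C had line differences of 5.03 ± 0.24, 6.47 ± 0.32 and 6.53 ± 0.31, with Hep3B changes of -0.29 ± 0.16, 0.05 ± 0.19 and -0.45 ± 0.16 that were not called in the fit of 8 libraries. By Hep3B's own spread PLK1 and UBE2C fell (adjusted p = 2.45e-05 and 9.33e-09), and KIF2C was not called (0.464). FOXM1, another factor of mitotic genes, changed by -5.50 ± 0.21 in HepG2 and -0.08 ± 0.16 in Hep3B.

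Mitotic genes are known to share a short promoter element, the CHR, and CCAAT boxes near it, which the repressor complex DREAM and the activators MYBL2 and FOXM1 use. The stretches below run 120 bases up to the start in RefSeq (build GRCh38.p14), 5′ to 3′ along the gene, and show these elements, which most genes of the list share, in 4 of them, with TTTGAA or TTCGAA (CHR) and CCAAT in capitals on either strand (CCAAT on the opposite strand reads ATTGG). PLK1 and MKI67 were taken by the rule for named genes, and CCNB2 and PRC1 were added after their values had been seen.
PLK1, chr16:23678769-23678888, plus strand: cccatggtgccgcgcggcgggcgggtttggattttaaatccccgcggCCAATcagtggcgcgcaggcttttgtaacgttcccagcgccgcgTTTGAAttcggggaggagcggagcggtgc
CCNB2, chr15:59105026-59105145, plus strand: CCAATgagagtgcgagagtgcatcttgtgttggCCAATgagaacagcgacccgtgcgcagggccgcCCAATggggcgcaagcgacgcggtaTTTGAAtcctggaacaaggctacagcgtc
MKI67, chr10:128126424-128126543, minus strand: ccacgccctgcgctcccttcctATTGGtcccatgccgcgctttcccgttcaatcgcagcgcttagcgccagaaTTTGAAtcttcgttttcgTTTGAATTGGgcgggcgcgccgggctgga
PRC1, chr15:90994536-90994655, minus strand: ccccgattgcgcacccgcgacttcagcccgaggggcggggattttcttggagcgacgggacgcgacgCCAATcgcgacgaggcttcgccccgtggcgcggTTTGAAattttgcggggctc
In PLK1 and CCNB2 the CHR begins 29 bases before the start, in PRC1 20, and MKI67 has one at 47 and another at 29, the latter overlapping a CCAAT box by 1 base. CCNB2, a cyclin of mitosis, changed by -5.45 ± 0.29 in HepG2 and 0.03 ± 0.24 in Hep3B, and PRC1, which bundles the central spindle, by -4.96 ± 0.23 and -0.45 ± 0.21. By Hep3B's own spread PRC1 fell there (adjusted p = 1.59e-10), and CCNB2 was not called (0.63). Of the 34 mitosis genes, 29 had a window of 250 bases before to 50 after a start in the RefSeq table. A CHR in either spelling was found in 23 of the 29 (79.3%) and CCAAT in 24 (82.8%), against 19.5% and 39.7% of the 27305 genes of the table, each searched on both strands. A match is only a run of letters and shows no binding.

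The 35 genes of DNA replication followed the same order with smaller gaps: 24 were called as positive line differences and none as negative. They fell in HepG2 in 32 of 35 (median -2.29), or 30 by that line's own spread, and 4 fell in Hep3B in the fit of 8 libraries (median -0.51). By Hep3B's own spread 28 fell and 1 rose, against 31.8% and 29.3% of all genes, so the list declined in both lines, by unequal amounts. RRM2, of the enzyme that supplies deoxynucleotides, stood at 106 and 90.7 CPM in isotonic medium and 2.10 and 0.854 CPM in 4% PEG in HepG2 and at 86.1 and 89.9 CPM uncompressed and 63.4 and 60.8 CPM in 3% PEG in Hep3B, a line difference of 5.54 ± 0.44. MCM10, which helps start replication forks, had a difference of 5.61 ± 0.46, with a Hep3B change of 0.00 ± 0.26, and ORC1 of the origin complex one of 3.04 ± 0.28. Of 18 genes for RB1 and its partner factors 7 were positive and none negative (7 and 2 when scaled by total counts). LIN54, a DNA-binding subunit of DREAM, was called in opposite directions, at -1.37 ± 0.15 in HepG2 and 0.87 ± 0.15 in Hep3B.

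Cell cycle inhibitors and D cyclins went both ways, with 3 positive and 5 negative line differences among 15 (median 0.21, and -0.05 when scaled by total counts). CDKN1A (p21), the best known target of p53 and an inhibitor of cyclin kinases, rose in both lines: it stood at 38.0 and 46.4 CPM in isotonic medium and 155 and 286 CPM in 4% PEG in HepG2 and at 0.885 and 1.06 CPM uncompressed and 11.9 and 13.6 CPM in 3% PEG in Hep3B, changes of 2.38 ± 0.28 and 3.70 ± 0.35. Its line difference of 1.32 ± 0.45 missed the threshold (adjusted p = 0.0872, 95% interval 0.26 to 2.38), while limma voom put it at an adjusted p of 0.0498. CDKN2B (p15), another inhibitor, rose from 2.15 and 1.46 CPM to 67.0 and 53.03 CPM in HepG2, and the 4 Hep3B libraries lay between 6.66 and 8.31 CPM, a difference of -4.83 ± 0.33. CCND1 (cyclin D1), which drives cells into the cycle, fell in Hep3B from 71.2 and 75.7 CPM to 22.4 and 21.9 CPM, a change of -1.73 ± 0.20, and changed by 0.46 ± 0.19 in HepG2, which was not called (adjusted p = 0.0964). Of 33 p53 target genes, 10 rose and 6 fell in HepG2, against 21.2% and 19.7% of all genes. In Hep3B 8 rose and 2 fell, against 7.18% and 6.94%. By a line's own spread 7 rose and 2 fell in HepG2 and 14 rose and 10 fell in Hep3B. The list had 3 positive and 3 negative differences (median 0.26), near the 8.64% and 8.72% of all genes. When scaled by total counts they were 3 and 6, with a median of -0.01. PLK2, a stress-induced kinase of this list, rose by 1.41 ± 0.29 in HepG2 and fell by 1.77 ± 0.29 in Hep3B. MDM2, the p53 target that in turn degrades p53, overlapped in HepG2 and had an interval of the difference of -0.98 to 1.01.

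Genes for the ribosome parted the lines as well. Of 53 genes for cytosolic ribosomal proteins, 40 had a positive line difference and none a negative one. All 53 fell in HepG2 (median -1.42), or 43 by that line's own spread. None was called in Hep3B (median -0.01, and 0.07 when scaled by total counts), where 12 rose and 17 fell by the line's own spread. Against 29.3% and 31.8% of all genes, these are 22.6% and 32.1% of the ribosomal protein genes. Their summed level was 39882 and 47701 CPM in isotonic HepG2, 16074 and 16487 CPM in 4% PEG, and between 17394 and 17707 CPM in all 4 Hep3B libraries. RPL4, of the large subunit, stood at 2213 and 2222 CPM in isotonic medium and 840.4 and 763 CPM in 4% PEG in HepG2 and 957 and 990.5 CPM uncompressed and 1179.8 and 1156 CPM in 3% PEG in Hep3B, a difference of 1.73 ± 0.18. RPL15 and RPS23 had differences of 2.04 ± 0.21 and 1.71 ± 0.17. Reads of ribosomal protein genes can be split with their many near-identical pseudogenes, so single values are uncertain. Of 30 genes that build ribosomes, 6 were positive and none negative. FBL, which modifies ribosomal RNA, fell by 2.31 ± 0.13 in HepG2 and changed by -0.39 ± 0.13 in Hep3B, a difference of 1.92 ± 0.18. The Hep3B change was a fall by that line's own spread (adjusted p = 1.76e-08).

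MYC (ENSG00000136997, chromosome 8, 127735434 to 127741434), a factor that drives growth and ribosome synthesis, was called in opposite directions. It stood at 192 and 224 CPM in isotonic medium and 92.8 and 105 CPM in 4% PEG in HepG2, where it fell by 1.07 ± 0.14 (adjusted p = 0.00122), and at 75.8 and 84.7 CPM uncompressed and 158 and 159 CPM in 3% PEG in Hep3B, where it rose by 0.98 ± 0.14 (adjusted p = 0.00628). In neither line did the treated and control libraries overlap, and the line difference was 2.05 ± 0.20 (adjusted p = 0.000945).

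**Figure D3:**
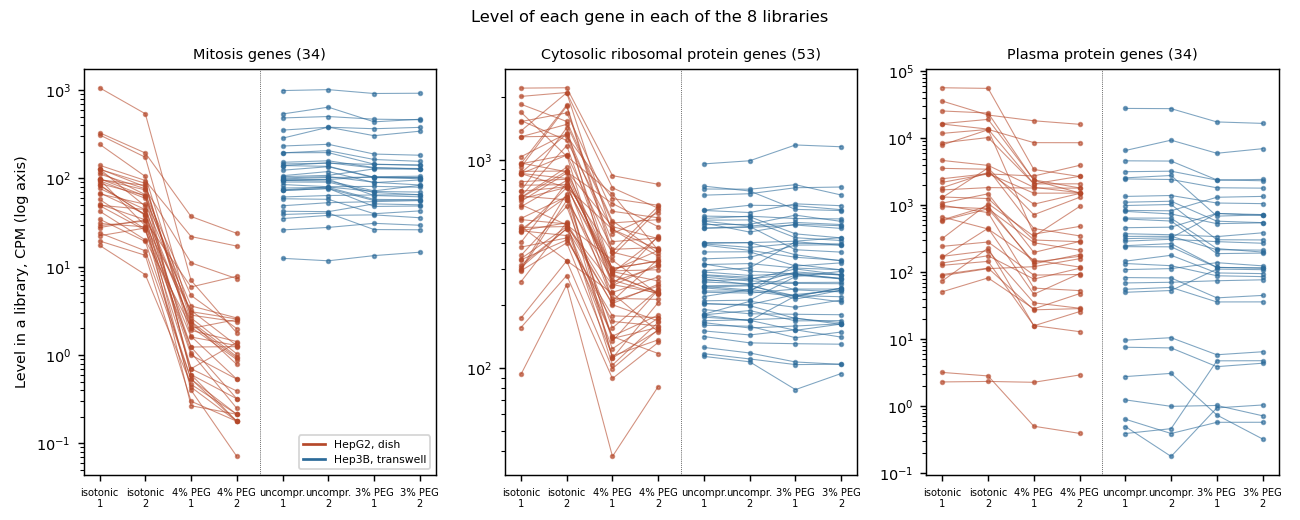
Level of every tested gene of 3 lists (CPM, log axis) in each of the 8 libraries, with red for HepG2 on dishes and blue for Hep3B on transwells. Lines join the points of a gene within a cell line and stand for no order in time. The 34 mitosis genes drop between isotonic medium and 4% PEG and run level in Hep3B; the plasma protein genes fall in HepG2 and go both ways in Hep3B.

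Genes for plasma proteins, the chief export of hepatocytes, fell more in HepG2. Of 34 tested, 20 had a positive line difference and none a negative one. In HepG2 26 fell and none rose (median -2.005), or 22 and none by the line's own spread, against 10.1% and 11.0% of all genes. In Hep3B 12 fell and 4 rose (median -0.55), or 21 and 7 by the line's own spread, against 31.8% and 29.3% of all genes. ALB (ENSG00000163631, chromosome 4, 73397114 to 73421412) stood at 56995 and 55812 CPM in isotonic medium and 3427 and 2695 CPM in 4% PEG in HepG2, and at 28010.1 and 27788 CPM uncompressed and 17602 and 16738 CPM in 3% PEG in Hep3B. It fell in both lines, with changes of -4.20 ± 0.16 and -0.70 ± 0.16, with a line difference of 3.50 ± 0.23 (95% interval 2.96 to 4.05). The fetal serum protein AFP likewise fell, with changes of -3.67 ± 0.21 and -1.60 ± 0.21, a difference of 2.07 ± 0.30. Complement factor C5 stood at 999 and 777 CPM in isotonic medium and 57.9 and 53.1 CPM in 4% PEG in HepG2 and at 291 and 311 CPM uncompressed and 286 and 271 CPM in 3% PEG in Hep3B, where it was not called. ORM1, an acute phase protein, went in opposite directions: it fell from 173 and 209.7 CPM to 34.9 and 28.99 CPM in HepG2 and rose from 50.2 and 53.3 CPM to 111 and 109 CPM in Hep3B, a difference of 3.67 ± 0.22.

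Enzymes and factors of the hepatocyte were mixed. Among 25 liver enzyme genes, 6 differences were positive and 3 negative (5 and 4 when scaled by total counts), and among 22 liver transcription factors 6 and 2. ARG1 (arginase), the last enzyme of the urea cycle, had the largest positive difference that the rule for named genes took, 8.16 ± 0.37 (adjusted p = 0.000135). It stood at 48.6 and 54.4 CPM in isotonic medium and 0.233 and 0.285 CPM in 4% PEG in HepG2 and at 3.08 and 2.34 CPM uncompressed and 3.84 and 4.05 CPM in 3% PEG in Hep3B. The Hep3B change was not called in the fit of 8 libraries and was by that line's own spread (adjusted p = 0.0136). CPS1, the first enzyme of the same cycle, fell in both lines but more in Hep3B, from 58.8 and 65.3 CPM to 3.03 and 2.65 CPM, against 106 and 98.3 CPM in isotonic medium and 38.7 and 35.8 CPM in 4% PEG in HepG2. Its changes were -4.45 ± 0.16 and -1.46 ± 0.15, a line difference of -2.99 ± 0.22. The tyrosine enzyme TAT was called in opposite directions, at -1.06 ± 0.32 in HepG2 and 2.53 ± 0.36 in Hep3B, from a Hep3B level of 0.566 and 1.13 CPM. By the own spread of HepG2 its change there was not called (adjusted p = 0.0807). Among factors, ONECUT1 fell by 4.36 ± 0.20 in HepG2 and fell by 0.70 ± 0.17 in Hep3B, and NR1H4, the bile acid receptor, fell in both as well (-3.67 ± 0.20 and -1.51 ± 0.19). NR5A2, a receptor of liver and pancreas, rose by 1.87 ± 0.17 in HepG2 and fell by 1.01 ± 0.16 in Hep3B, from 257 and 259.8 CPM to 130.3 and 125 CPM.

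Progenitor and bile duct genes gave 3 positive and 5 negative differences among 15. KRT19 (ENSG00000171345, chromosome 17, 41523617 to 41528308), a keratin of bile duct and progenitor cells, stood at 25.9 and 53.3 CPM in isotonic medium and 489 and 654 CPM in 4% PEG in HepG2 and at 176 and 169 CPM uncompressed and 36.1 and 33.0 CPM in 3% PEG in Hep3B. It rose by 3.85 ± 0.31 in HepG2 and fell by 2.32 ± 0.32 in Hep3B, a line difference of -6.17 ± 0.45 (adjusted p = 0.000505). SOX4, a factor of progenitor cells, followed it, from 12.9 and 12.6 CPM to 139 and 95.8 CPM in HepG2 and from 542 and 543 CPM to 252 and 256 CPM in Hep3B, a difference of -4.30 ± 0.26. SPP1 (osteopontin), a secreted protein of the same list, moved the other way: it rose by 2.60 ± 0.27 in Hep3B from 0.319 and 0.389 CPM and changed by -0.35 ± 0.16 in HepG2, a change that was not called.

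The genes that went in opposite directions were 80 that fell in HepG2 and rose in Hep3B and 118 that did the reverse. With at least 5 CPM on average over the 8 libraries they were 66 and 89, and the 6 of each kind whose smaller effect was largest are described here. Those that fell in HepG2 and rose in Hep3B include genes of liver metabolism. UGT2B4, an enzyme that glucuronidates bile acids, stood at 97.7 and 101 CPM in isotonic medium and 8.10 and 5.73 CPM in 4% PEG in HepG2 and at 55.6 and 54.8 CPM uncompressed and 204 and 207 CPM in 3% PEG in Hep3B, with changes of -3.84 ± 0.18 and 1.89 ± 0.17 and a line difference of 5.73 ± 0.24. Reads of this family can be split between close relatives. SLC17A2, a phosphate transporter, changed by -2.46 ± 0.28 and 3.48 ± 0.31, from 0.743 and 0.991 CPM uncompressed to 9.69 and 9.71 CPM in 3% PEG. The steroid-reducing enzymes AKR1C1 and AKR1C2 fell in HepG2, with changes of -1.91 ± 0.24 and -1.69 ± 0.20, and rose by 2.02 ± 0.37 and 2.55 ± 0.35 in Hep3B. They are near copies of each other, and in Hep3B they stayed low, at 2.37 and 2.54 CPM and 1.35 and 2.01 CPM in 3% PEG. NPNT (nephronectin), a matrix ligand of integrins, went from 12.6 and 14.5 CPM to 2.33 and 2.24 CPM in HepG2 and from 58.6 and 60.2 CPM to 195 and 194 CPM in Hep3B. SORL1, a sorting receptor, changed by -1.77 ± 0.19 in HepG2 and 1.64 ± 0.20 in Hep3B.

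Of the 6 genes that rose in HepG2 and fell in Hep3B, 4 were barely present in isotonic HepG2. CHODL and MAMLD1 had no read in either isotonic library and 7 and 4 reads, and 11 and 9 reads, in 4% PEG, which puts them at least 3.00-fold and 5.46-fold higher there, taking 3 counts over the isotonic group as the floor. By the own spread of HepG2 the rise of CHODL was not called (adjusted p = 0.0742). In Hep3B, where CHODL fell from 20.2 and 21.8 CPM to 1.55 and 2.01 CPM and MAMLD1 from 35.4 and 40.9 CPM to 3.31 and 3.30 CPM, the changes were -3.56 ± 0.27 and -3.53 ± 0.21. In Hep3B the retinoic acid receptor RARB fell by 2.38 ± 0.24 and rose in HepG2 from 3 and 2 reads to 48 and 32 reads, and the factor MAF changed by -2.40 ± 0.35 in Hep3B and rose in HepG2 by 4.40 ± 0.56, from 0.111 and 0.389 CPM to 6.40 and 3.73 CPM. ITIH5, a stabiliser of hyaluronan in the matrix, rose in HepG2 from 9.52 and 7.45 CPM to 39.3 and 39.4 CPM and in Hep3B went from 8 and 15 reads to 2 and 0 reads. KRT19, above, is the sixth.

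**Figure D4:**
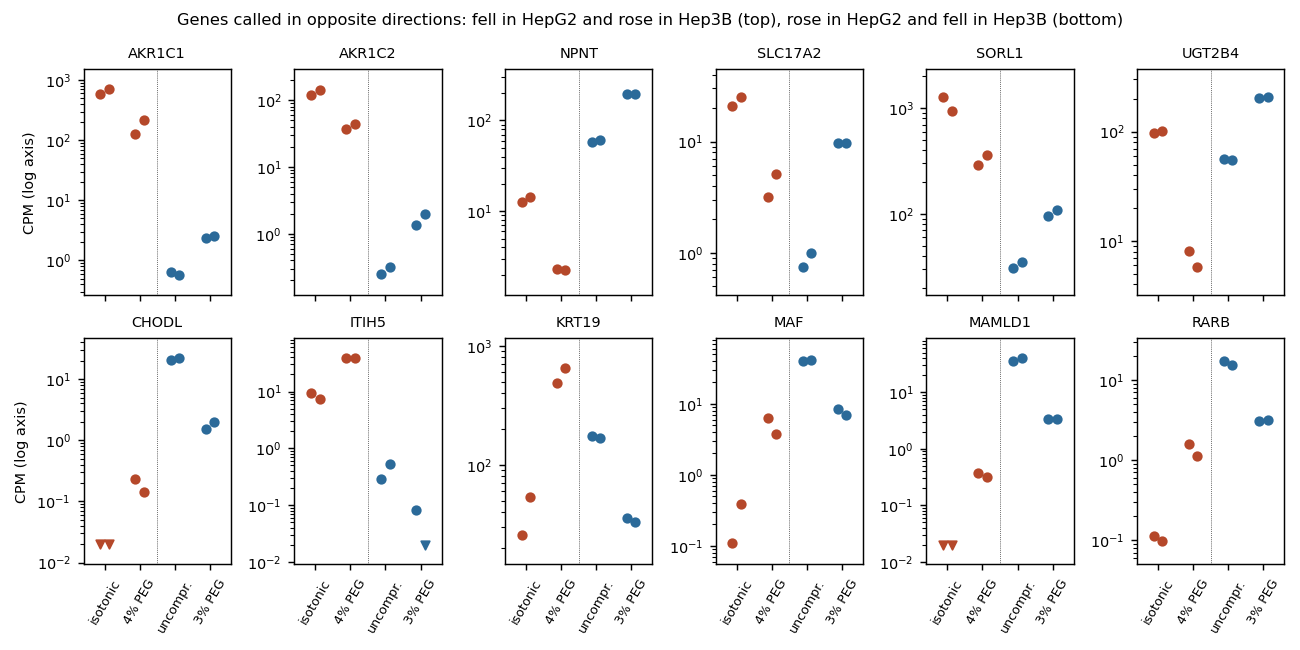
Levels (CPM, log axis) of 12 genes called in opposite directions, 1 panel each, with 2 points per group, the first 2 groups HepG2 and the last 2 Hep3B. In the upper 6 the points fall from isotonic medium to 4% PEG and rise from uncompressed to 3% PEG; in the lower 6 they do the reverse, and triangles mark libraries with no read.

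Genes under ATF4 were the list with the largest median change in Hep3B apart from the metallothioneins. Of 30 tested, 25 rose in Hep3B and none fell, against 7.18% and 6.94% of all genes (median 1.91), and in HepG2 9 rose and 2 fell (median 0.24). The line difference was positive in 13 and negative in none. By Hep3B's own spread 29 rose and 1 fell there, and by that of HepG2 6 rose and none fell. STC2 (ENSG00000113739, chromosome 5, 173314713 to 173329503), a secreted glycoprotein induced by stress, stood at 175 and 207 CPM in isotonic medium and 86.1 and 133 CPM in 4% PEG in HepG2 and at 20.2 and 21.4 CPM uncompressed and 143 and 151 CPM in 3% PEG in Hep3B. It fell by 0.80 ± 0.21 in HepG2 (adjusted p = 0.0219, and 0.0996 by the own spread of HepG2) and rose by 2.82 ± 0.22 in Hep3B, a difference of 3.62 ± 0.30. MTHFD2, the mitochondrial folate enzyme, stood at 187 and 188 CPM in isotonic medium and 105 and 116 CPM in 4% PEG and at 135 and 132 CPM uncompressed and 371 and 361 CPM in 3% PEG, changes of -0.76 ± 0.12 and 1.46 ± 0.12; the HepG2 change was called in the fit of 8 libraries and not by that line's own spread (adjusted p = 0.0610). DDIT4, an inhibitor of the growth kinase mTOR, rose by 2.16 ± 0.18 in Hep3B and changed by -0.29 ± 0.17 in HepG2, which was not called. ATF4 itself, named after its values had been seen, rose by 0.71 ± 0.17 in Hep3B, with a line difference of 0.97 ± 0.24 that was lost without any 1 of the Hep3B libraries (adjusted p up to 0.136) and when scaled by total counts. The list was not uniform: the cystine transporter gene SLC7A11 rose by 3.01 ± 0.30 in HepG2 and 3.15 ± 0.30 in Hep3B, and its interval of the difference, -0.86 to 1.15, spans 0.

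**Figure D5:**
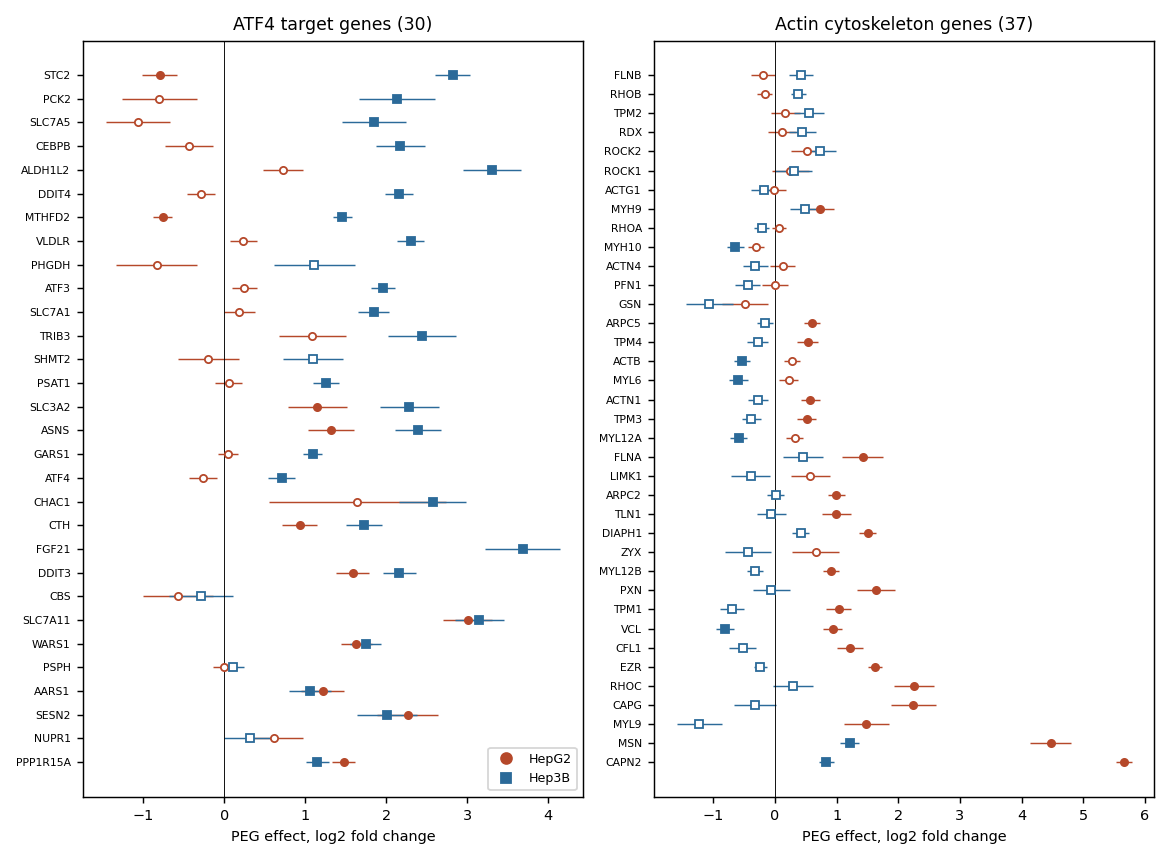
Log2 fold change with PEG (bars are SE) of each tested ATF4 target gene and actin cytoskeleton gene, as circles for HepG2 and squares for Hep3B, filled where the effect was called. In the upper rows of the left panel Hep3B lies to the right of HepG2; in the lower rows of the right panel HepG2 lies to the right. The HepG2 value of FGF21, which had no read in isotonic medium, is left out.

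Targets of NRF2, the factor of the antioxidant response, were called mostly as rises in both lines: 13 of 28 in HepG2, with 3 falling, and 15 of 28 in Hep3B, with none falling (medians 0.79 and 1.34). With each line's own spread 9 rose and 2 fell in HepG2 and 25 rose and 2 fell in Hep3B. The line difference was positive in 6 and negative in 2. UGDH, which makes the sugar donor for glucuronidation, rose by 1.77 ± 0.13 in Hep3B, from 225 and 219 CPM to 769.8 and 750.3 CPM, and lay between 518 and 623 CPM in all 4 HepG2 libraries, a difference of 1.66 ± 0.19. Chaperones of the endoplasmic reticulum gave 6 positive differences and no negative one among 22 (5 and 1 when scaled by total counts). HSP90B1 fell from 5071 and 2982 CPM to 539.8 and 379 CPM in HepG2 and changed by -0.80 ± 0.27 in Hep3B. The Hep3B change was not called in the fit of 8 libraries and was by that line's own spread (adjusted p = 1.3e-18). PDIA4 fell in both lines (-2.61 ± 0.12 and -0.84 ± 0.12). Heat shock genes of the cytosol gave 1 positive and 4 negative differences among 21 (none and 6 when scaled by total counts). HSPB8, a small chaperone, rose in HepG2 from 3 and 3 reads to 542 and 850 reads. In Hep3B it went from 5.98 and 5.20 CPM to 10.2 and 11.9 CPM (adjusted p = 0.0646, and 1.46e-08 by that line's own spread).

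Metallothioneins, small proteins that bind zinc and copper, stood at very different levels in the lines and were called mostly as rises in both. The list holds 11 tested genes with their regulators, of which 7 rose and 2 fell in HepG2 and 8 rose in Hep3B. With each line's own spread the HepG2 counts were the same, and 9 rose in Hep3B. The line difference was positive in 5 and negative in none (5 and 1 when scaled by total counts), and the 5 are MT1E, MT1G, MT1X and the transporter genes SLC30A10 and SLC39A14. MT1E stood at 16.5 and 22.8 CPM in isotonic medium and 146 and 145 CPM in 4% PEG in HepG2, a rise of 2.88 ± 0.25. In Hep3B it went from 2 and 0 reads to 89 and 109 reads, also called. MT1G went from 57 and 216 reads to 247 and 300 reads in HepG2, which was not called, and from 1 and 0 reads to 68 and 76 reads in Hep3B, which was. MT1X rose by 2.82 ± 0.19 in HepG2, from 6.11 and 7.74 CPM to 47.5 and 50.3 CPM, and by 4.43 ± 0.28 in Hep3B, from 0.319 and 0.283 CPM to 6.50 and 6.63 CPM. MT2A rose by 2.70 ± 0.43 and 5.45 ± 0.76, with 0.425 and 0.177 CPM and 11.8 and 14.9 CPM in the 2 Hep3B groups; its line difference of 2.75 ± 0.87 missed the threshold (adjusted p = 0.0583), though it passed by limma voom (adjusted p = 0.0195). The line difference of MT1X was lost without any 1 of the 4 Hep3B libraries (adjusted p up to 0.106), and that of MT1E without 2 of them in turn (up to 0.0522). MT1E, MT1X and MT2A thus rose in both lines, and the genes are near copies, so reads may be split among them. Their promoters are known for metal response elements, bound by the zinc sensor MTF1, shown here because members moved together. The stretches run 180 bases up to the start in RefSeq (GRCh38.p14), with TGCGCNC or TGCACNC in capitals on either strand; both genes and this search were chosen after the values had been seen.
MT2A, chr16:56608404-56608583, plus strand: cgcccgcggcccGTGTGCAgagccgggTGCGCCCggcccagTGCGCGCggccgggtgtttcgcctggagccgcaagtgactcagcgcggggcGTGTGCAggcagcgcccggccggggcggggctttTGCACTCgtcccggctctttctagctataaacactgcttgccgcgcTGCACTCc
MT1X, chr16:56682290-56682469, plus strand: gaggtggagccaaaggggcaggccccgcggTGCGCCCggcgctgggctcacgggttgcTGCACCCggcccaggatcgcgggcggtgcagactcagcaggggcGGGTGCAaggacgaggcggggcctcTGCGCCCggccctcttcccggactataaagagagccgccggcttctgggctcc
MT2A holds 6 matches in this stretch and MT1X 4. Of the 12 genes of the list 6 had a promoter window in the table and 4 of the 6 held a match, as did 33.4% of all 27305 genes, so a single match is common.

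The 2 genes of the list that fell in HepG2 are transporters. The manganese exporter SLC30A10 fell by 2.10 ± 0.22 in HepG2 and changed by 0.12 ± 0.22 in Hep3B, and the zinc importer SLC39A14 fell by 1.39 ± 0.18 and changed by 0.29 ± 0.18. By Hep3B's own spread SLC39A14 rose there (adjusted p = 1.81e-06), and SLC30A10 was not called (0.063). SLC30A1, a zinc exporter under MTF1, rose by 1.55 ± 0.18 in HepG2 and 1.51 ± 0.18 in Hep3B, and the interval of its line difference was -0.65 to 0.56.

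Of 18 genes of the hyperosmotic response, 10 rose and 2 fell in HepG2 and 4 rose and 1 fell in Hep3B, with 2 positive and 5 negative differences. With each line's own spread 6 rose and 2 fell in HepG2 and 9 rose and 5 fell in Hep3B. SLC6A6, the taurine transporter, stood at 54.7 and 50.4 CPM in isotonic medium and 161 and 247 CPM in 4% PEG in HepG2 and at 56.8 and 57.2 CPM uncompressed and 39.2 and 41.1 CPM in 3% PEG in Hep3B. It rose by 1.96 ± 0.20 in HepG2 and changed by -0.51 ± 0.21 in Hep3B, which was not called in the fit of 8 libraries and fell by the line's own spread (adjusted p = 5.41e-09), a difference of -2.46 ± 0.29. AQP3, a channel for water and glycerol, rose from 8.30 and 7.30 CPM to 95.8 and 154 CPM in HepG2, while the 4 Hep3B libraries lay between 22.7 and 25.3 CPM. The inositol transporter SLC5A3 rose by 1.16 ± 0.32 in HepG2 (adjusted p = 0.0245, and 0.0756 by that line's own spread) and changed by -0.11 ± 0.32 in Hep3B; the line difference missed the threshold (adjusted p = 0.0970) and passed it by limma voom (0.0294). AKR1B1, which makes sorbitol, lay between 32.4 and 57.6 CPM in HepG2, with no call, and had 3 reads in all 4 Hep3B libraries together, too few for a fold. NFAT5 changed by -0.23 ± 0.28 in HepG2 and 0.42 ± 0.28 in Hep3B, and neither was called in the fit of 8 libraries, while its Hep3B change was called by that line's own spread (adjusted p = 7.55e-06). SGK1, a kinase that shrinkage induces in many cells, fell in both lines, from 104 and 101 CPM to 7.10 and 4.62 CPM and from 128 and 133 CPM to 40.0 and 44.1 CPM, a difference of 2.49 ± 0.28.

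Channels and cotransporters of cell volume gave 2 positive and 2 negative differences among 23 (1 and 6 when scaled by total counts). That is near the 8.64% and 8.72% of all genes. SLC12A2 (NKCC1), which brings sodium, potassium and chloride into shrunken cells, fell in Hep3B from 486 and 511 CPM to 139 and 134 CPM, a change of -1.87 ± 0.27, and changed by 0.66 ± 0.27 in HepG2 (adjusted p = 0.0959). WNK1, the kinase above it, was called in opposite directions, at -0.70 ± 0.15 in HepG2 and 0.77 ± 0.15 in Hep3B, though its HepG2 change was not called by that line's own spread (adjusted p = 0.0823).

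Genes of the actin skeleton and of calcium-binding S100 proteins and annexins were called mostly as rises in HepG2, and in both directions in Hep3B. Of 37 actin genes, 19 had a negative line difference and none a positive one, against 8.72% and 8.64% of all genes. In HepG2 20 rose and none fell (median 0.57), or 12 and none by the line's own spread, against 11.0% and 10.1% of all genes. In Hep3B 2 rose and 5 fell (median -0.24), or 12 and 22 by the line's own spread, against 29.3% and 31.8% of all genes. CAPN2, a calcium-activated protease that cuts skeletal proteins, stood at 12.5 and 11.1 CPM in isotonic medium and 585 and 614 CPM in 4% PEG in HepG2 and at 78.2 and 81.5 CPM uncompressed and 141 and 143 CPM in 3% PEG in Hep3B: it rose in both, by 5.66 ± 0.12 and 0.83 ± 0.12, with a difference of -4.83 ± 0.17 (adjusted p = 0.00012). EZR (ezrin), which ties actin to the membrane, rose by 1.63 ± 0.11 in HepG2 and changed by -0.24 ± 0.11 in Hep3B. By Hep3B's own spread EZR fell there (adjusted p = 5.04e-05). Its relative MSN (moesin) rose by 4.47 ± 0.33 in HepG2, from 0.111 and 0.195 CPM only, and by 1.21 ± 0.15 in Hep3B, from 57.2 and 55.7 CPM. Of 22 S100 and annexin genes 14 had a negative difference and 1 a positive one. In HepG2 15 rose and 1 fell, or 12 and 1 by the line's own spread. In Hep3B 5 rose and 4 fell, or 6 and 13 by the line's own spread, against 29.3% and 31.8% of all genes. S100A11 rose from 4.37 and 5.21 CPM to 234 and 275 CPM in HepG2 and from 3.75 and 3.33 CPM to 22.7 and 24.6 CPM in Hep3B. In Hep3B ANXA4 fell by 1.81 ± 0.12, from 431 and 428 CPM to 125 and 120.3 CPM, and changed by 0.26 ± 0.12 in HepG2.

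Collagen, laminin and integrin genes gave 9 negative and 1 positive difference among 25, with 12 rises and 2 falls in HepG2 and 3 of each in Hep3B. With each line's own spread 10 rose and 2 fell in HepG2 and 9 rose and 11 fell in Hep3B. The integrin subunit ITGA3 rose in HepG2 from 0.407 and 0.584 CPM to 52.5 and 115 CPM and lay between 0.450 and 0.645 CPM in all Hep3B libraries. ITGA5, of the fibronectin receptor, rose in HepG2 from 0.222 and 0.195 CPM to 10.3 and 23.9 CPM and stood at 85.7 and 82.3 CPM uncompressed and 47.2 and 50.8 CPM in 3% PEG in Hep3B. This was a fall in Hep3B by that line's own spread (adjusted p = 9.55e-15). FN1 (fibronectin), the positive one, fell from 34961 and 27934 CPM to 9821 and 9118 CPM in HepG2 and was at 1877 and 2262 CPM uncompressed and 2281 and 2543 CPM in 3% PEG in Hep3B, a difference of 1.95 ± 0.25. Among 18 matrix proteases and their inhibitors, 4 of the 6 called differences came from genes called in opposite directions. TIMP2, an inhibitor of matrix metalloproteinases, stood at 44.3 and 48.1 CPM in isotonic medium and 499.98 and 628 CPM in 4% PEG in HepG2 and at 83.0 and 85.1 CPM uncompressed and 22.1 and 26.4 CPM in 3% PEG in Hep3B, changes of 3.61 ± 0.16 and -1.79 ± 0.16. TIMP3 did the reverse, at -1.82 ± 0.13 and 1.12 ± 0.15, but from only 2.48 and 2.55 CPM in Hep3B. The urokinase receptor PLAUR rose in HepG2 from 0.778 and 1.65 CPM to 24.98 and 32.2 CPM, a difference of -5.27 ± 0.50.

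Targets of YAP, a factor that responds to cell shape and crowding, gave 7 negative and 2 positive differences among 21 (12 and 2 when scaled by total counts). ANKRD1 rose from 37.8 and 23.9 CPM to 243 and 206 CPM in HepG2 and stood at 45.9 and 44.6 CPM uncompressed and 35.9 and 32.9 CPM in 3% PEG in Hep3B, a difference of -3.26 ± 0.31. YAP1 itself rose by 0.96 ± 0.15 in HepG2 and changed by -0.49 ± 0.15 in Hep3B. By Hep3B's own spread both ANKRD1 and YAP1 fell there (adjusted p = 3.05e-06 and 3.41e-11). Lysosome and autophagy genes gave 7 negative differences and none positive among 30 (11 and none when scaled by total counts), with 15 rises and no fall in HepG2 and 4 rises and 3 falls in Hep3B. With each line's own spread 9 rose and none fell in HepG2 and 13 rose and 11 fell in Hep3B. CTSB (cathepsin B) rose from 820.4 and 1163 CPM to 4487 and 7505 CPM in HepG2 and changed by -0.21 ± 0.27 in Hep3B. The Hep3B change was a fall by that line's own spread (adjusted p = 0.000492). Of 30 immediate early and feedback genes 7 were negative and 4 positive. DUSP5, a phosphatase of the kinase ERK, rose from 4.63 and 5.30 CPM to 291 and 489 CPM in HepG2. In Hep3B it stood at 1.31 and 1.63 CPM uncompressed and 3.15 and 2.97 CPM in 3% PEG. That was not called in the fit of 8 libraries (adjusted p = 0.0620) and was by the line's own spread (0.000146). Genes of the TGF-beta response gave 8 positive and 4 negative differences among 23. LTBP2, which binds the matrix near latent TGF-beta, rose by 2.84 ± 0.28 in HepG2 and changed by -0.83 ± 0.26 in Hep3B, a difference of -3.67 ± 0.38. Its Hep3B change was not called in the fit of 8 libraries and was by that line's own spread (adjusted p = 1.33e-12).

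Among 15 markers of the mesenchymal state, 4 differences were positive and 1 negative. Among 23 genes of epithelial junctions 2 were negative and none positive (5 and none when scaled by total counts). Of all genes, 8.64% were positive and 8.72% negative. VIM (vimentin), the mesenchymal filament, had 1 read in all 4 HepG2 libraries together and lay between 312 and 337 CPM in Hep3B, with no call. CDH1 (E-cadherin), the main epithelial adhesion protein, stood at 64.4 and 109 CPM in isotonic medium and 53.7 and 54.4 CPM in 4% PEG in HepG2 and at 229 and 249 CPM uncompressed and 284 and 282 CPM in 3% PEG in Hep3B, and neither line nor the difference was called in the fit of 8 libraries (by the own spread of Hep3B its change was, adjusted p = 3.86e-05; difference 0.93 ± 0.32, interval 0.16 to 1.69). LOX, which crosslinks collagen, fell in both lines, from 942 and 757 CPM to 79.7 and 54.8 CPM and from 51.2 and 50.7 CPM to 12.7 and 11.9 CPM. Its difference of 1.61 ± 0.29 and that of CDH2 (N-cadherin), 1.01 ± 0.19, were lost without a Hep3B library (adjusted p up to 0.0591 and 0.0794). Inflammatory genes under NF-kappaB gave 1 positive and 5 negative differences among 19, with 8 falls and 1 rise in Hep3B and 4 falls and 3 rises in HepG2. With each line's own spread 13 fell and 2 rose in Hep3B and 3 fell and 1 rose in HepG2. TNFAIP3, an inhibitor of that pathway, fell by 2.94 ± 0.15 in HepG2 and fell by 0.71 ± 0.16 in Hep3B and is the positive one. TNFAIP2 rose in HepG2 from 3 and 7 reads to 31 and 55 reads and stood at 33.6 and 33.8 CPM uncompressed and 13.1 and 15.4 CPM in 3% PEG in Hep3B, a difference of -4.02 ± 0.66.

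Cholesterol synthesis genes were called as falls more often than as rises in both lines. In HepG2 14 of 25 fell and 1 rose (median -0.85), or 9 and none by that line's own spread. In Hep3B 13 of 25 fell and none rose (median -0.99), or all 25 fell by that line's own spread. Line differences were called in 3 genes of this list, all negative, beside 17.4% of all genes. Those of MVK and NSDHL, enzymes early and late in the pathway, were -1.76 ± 0.42 and -0.98 ± 0.20. With 1 library left out in turn they ran from -2.06 to -1.37 and from -1.01 to -0.88. Both calls were lost without any 1 of the Hep3B libraries, and that of MVK also without either of 2 HepG2 libraries. Genes of fatty acid and fat synthesis split, with 4 positive and 4 negative differences among 20. PLIN2, which coats lipid droplets, fell by 3.15 ± 0.18 in HepG2 and fell by 0.69 ± 0.18 in Hep3B, and GPAM, which starts fat synthesis, fell by 2.84 ± 0.15 in HepG2 and changed by -0.09 ± 0.15 in Hep3B. SCD, the desaturase, fell in Hep3B from 2995 and 3115 CPM to 1316 and 1267 CPM and overlapped in HepG2; its difference of -1.27 ± 0.20 was lost without 1 Hep3B library (adjusted p = 0.0512). Fatty acid oxidation genes gave 8 positive differences and none negative among 23 (4 and none when scaled by total counts). CPT1A, which brings fatty acids into mitochondria, fell by 0.66 ± 0.13 in HepG2 (adjusted p = 0.00618, and 0.0908 by that line's own spread) and rose by 0.94 ± 0.13 in Hep3B. Glycolysis and hypoxia genes fell in 21 of 34 in HepG2, with 3 rises, and in 3 of 34 in Hep3B, with 1 rise. By the own spread of HepG2 14 fell and 3 rose there. In Hep3B 19 fell and 5 rose by its own spread, against 31.8% and 29.3% of all genes. Of the line differences, 8 were positive and 3 negative. VEGFA, the main growth factor of vessels, stood at 366 and 440.4 CPM in isotonic medium and 142 and 128 CPM in 4% PEG in HepG2 and at 77.1 and 76.3 CPM uncompressed and 149 and 139 CPM in 3% PEG in Hep3B, called in opposite directions with a line difference of 2.49 ± 0.20. CA12, a carbonic anhydrase, rose in HepG2 from 0.667 and 1.51 CPM to 56.7 and 62.0 CPM and in Hep3B went from 29.7 and 28.5 CPM to 47.2 and 48.0 CPM. The Hep3B change was not called in the fit of 8 libraries and was by that line's own spread (adjusted p = 5.11e-12).

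Genes encoded by the mitochondrial genome rose in HepG2 in 11 of 13 (median 1.72), or 10 by that line's own spread. None was called in Hep3B in either fit (median -0.11). No line difference passed in this list (median -1.76) by the fit or by limma voom, and 3 were negative when scaled by total counts. Replicates vary here: the summed level was 16931 and 8304 CPM in isotonic HepG2, 48434 and 29903 CPM in 4% PEG, 17947 and 12981 CPM in uncompressed Hep3B and 19363 and 9027 CPM in 3% PEG, so that the Hep3B groups overlap and the HepG2 groups do not. The 39 nuclear genes of oxidative phosphorylation gave 1 positive and 1 negative difference (1 and 5 when scaled by total counts), with a median of -0.00 that turned to 0.01 with RLE size factors and -0.27 with total counts. In Hep3B 4 fell, against 6.94% of all genes, or 33 by its own spread, against 31.8%.

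Genes of cell death and survival gave calls in both directions. Of 29 pro-apoptotic genes 3 line differences were positive and 4 negative (3 and 7 when scaled by total counts), and of 15 anti-apoptotic genes 2 and 3, beside calls in 17.4% of all genes. BIRC5 (survivin), which blocks caspases and also serves in mitosis, had the largest of them, 6.91 ± 0.38: it stood at 87.9 and 63.9 CPM in isotonic medium and 0.600 and 0.320 CPM in 4% PEG in HepG2 and at 91.1 and 90.8 CPM uncompressed and 69.4 and 65.4 CPM in 3% PEG in Hep3B. By Hep3B's own spread BIRC5 fell there as well (adjusted p = 1.02e-08). MCL1, a survival protein of the BCL2 family, rose by 1.39 ± 0.12 in HepG2 and changed by 0.06 ± 0.12 in Hep3B, a difference of -1.34 ± 0.17 (adjusted p = 0.00240). BCL2L1, of the same family, rose by 1.42 ± 0.26 in HepG2 and changed by -0.26 ± 0.26 in Hep3B; its call was lost without any 1 Hep3B library or replicate 1 of isotonic HepG2 (adjusted p up to 0.0924). The Hep3B change of BCL2L1 was a fall by that line's own spread (adjusted p = 2.08e-05). The death receptor gene TNFRSF10B rose in Hep3B from 57.0 and 57.4 CPM to 149.7 and 155 CPM and lay between 282 and 363 CPM in all HepG2 libraries, a difference of 1.38 ± 0.22. BNIP3, a mitophagy receptor, fell by 1.89 ± 0.13 in HepG2, from 837 and 793 CPM to 239 and 199.6 CPM, and changed by 0.03 ± 0.14 in Hep3B. Interferon and antigen presentation genes gave 1 positive and 1 negative call among 28 (none and 2 when scaled by total counts), beside 8.64% and 8.72% of all genes. The positive one, of the antigen-presenting gene HLA-B, was lost without any 1 of the Hep3B libraries and without 1 of the HepG2 libraries. Its line difference ran from 1.22 to 1.67 with 1 library left out in turn.

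The most negative line differences came from genes with few or no reads in isotonic HepG2, where a fitted fold depends on the prior count. ADAMTS9, a matrix protease, had no read in isotonic HepG2 and 294 and 236 reads in 4% PEG, at least 145-fold higher at the floor of 3 counts over the group, while the 4 Hep3B libraries lay between 25.2 and 31.3 CPM. HDAC9, a histone deacetylase, had no read there and 24 and 24 reads in 4% PEG, at least 13.1-fold higher, and in Hep3B fell by 0.97 ± 0.20. SEL1L3, a membrane protein, had reads in every library: it stood at 0.370 and 0.389 CPM in isotonic medium and 145 and 189.7 CPM in 4% PEG in HepG2 and at 243 and 253 CPM uncompressed and 555 and 549.6 CPM in 3% PEG in Hep3B, rising by 8.77 ± 0.26 and 1.15 ± 0.15, a difference of -7.62 ± 0.30 (adjusted p = 0.00012). JCAD, of endothelial and epithelial junctions, rose by 6.13 ± 0.39 in HepG2 and fell by 1.91 ± 0.22 in Hep3B. The positive extremes outside the cell cycle were ARG1, above, MND1, a meiosis gene, and PDE3A, a phosphodiesterase, which went from 236 and 103 reads to 5 and 1 reads in HepG2 and rose from 7.61 and 8.57 CPM to 20.8 and 19.8 CPM in Hep3B.

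Other genes changed strongly in the same direction in both lines. Those with a mean of at least 5 CPM and called in the same direction in both were 453 that rose and 407 that fell. SPINK1, a trypsin inhibitor of stressed liver and pancreas, stood at 1.52 and 1.36 CPM in isotonic medium and 25.1 and 29.5 CPM in 4% PEG in HepG2 and at 1.73 and 2.23 CPM uncompressed and 70.1 and 68.9 CPM in 3% PEG in Hep3B, rises of 4.24 ± 0.21 and 5.13 ± 0.20, with an interval of the difference of 0.22 to 1.57 (adjusted p = 0.0755). DRAIC, a long noncoding RNA, rose from 1 and 3 reads to 1058 and 635 reads in HepG2 and by 6.10 ± 0.40 in Hep3B, from 0.319 and 0.389 CPM to 24.6 and 24.7 CPM. ATP6V0D2, a subunit of the proton pump of lysosomes, went from 2 and 2 reads to 776 and 787 reads in HepG2 and from no read to 21 and 25 reads in Hep3B. KNG1 (kininogen), a plasma protein, fell from 9.11 and 12.7 CPM to 0.734 and 0.534 CPM in HepG2 and from 264 and 285 CPM to 12.2 and 13.4 CPM in Hep3B, changes of -4.09 ± 0.26 and -4.42 ± 0.19, with an interval of the difference of -1.10 to 0.43. The copper carrier CP also fell in both (-4.43 ± 0.33 and -3.85 ± 0.34), with an interval of the difference of -0.54 to 1.70, and so did the factor IRX3 (-4.25 ± 0.20 and -4.18 ± 0.34), with one of -0.87 to 1.00. SERPINA7, which carries thyroid hormone, fell in both lines, with changes of -6.87 ± 0.21 in HepG2 and -3.46 ± 0.25 in Hep3B, a difference of 3.41 ± 0.32.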

How the data were processed

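Values were raw read counts per gene, deposited by the authors for 14 libraries in 1 table, of which 8 were used. The submitters' processing notes name STAR and DESeq2, with no version used here, and the builds GRCh38 and hg38, without saying which step used which. The labels' protocols give column-based RNA extraction and paired reads of 100 bases. Entries given by identifier with no symbol (15420, at most 0.308% of a library's counts) were kept in the fit and are not named.

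Genes with at least 1 CPM in 2 of the 8 libraries (15774) were fitted with 4 group means by edgeR 4.0.16 under R 4.3.3 (TMM scaling, quasi-likelihood with robust dispersion, 4 residual degrees of freedom). The contrast was the PEG effect in Hep3B minus that in HepG2. Adjusted p-values are Benjamini-Hochberg over all genes tested, and each SE is the Wald SE of that fit. The labels do not say that replicates came from separate cultures, so p-values measure the spread between these samples, which may be technical. CPM values by library are counts per 1e6 counts after TMM scaling, and depth was 21.2 M to 35.4 M counts. The fit was checked on simulated counts. Alternatives were RLE and total-count scaling, no filter or 5 CPM, all 14 libraries, DESeq2 1.42.0, limma 3.58.1 (voom with weights per line), 2 replicate blocks, a minimum log2 fold change of 1, leaving out each library, and each line alone, the last added after seeing the data.

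Named genes were, at a mean of at least 5 CPM, the 8 highest and 8 lowest called line differences, the 6 strongest per direction among genes called in opposite directions and among genes called alike, and up to 3 called genes per list with the smallest p, plus 16 genes of the labels and the expected responses. The members and the 39 lists (997 symbols, 995 found) were chosen with earlier results of these data known. MT2A, MT1X, MT1G, ATF4, CCNB2, PRC1, SLC7A11 and SLC30A1 were named, and promoters searched for metal response elements, after values were seen. Promoter sequence is from RefSeq (GRCh38.p14). Some results of listed genes are not reported here.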

Additional observations from a re-analysis of the deposited data

Results flagged for a closer look

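The 198 genes called in opposite directions in the lines stand out because the same kind of treatment moved them up in one line and down in the other, and the difference itself passed the test (edgeR, adjusted over all genes tested). The 12 genes of this kind with the largest smaller effect follow, as log2 line differences where every group had more than 3 reads. Those higher in Hep3B are SLC17A2 at 5.94, UGT2B4 at 5.73, NPNT at 4.27, AKR1C2 at 4.25, AKR1C1 at 3.94 and SORL1 at 3.40. Those lower in Hep3B are MAF at -6.80, KRT19 at -6.17 and RARB at -6.02, and 3 genes with few or no reads in a group, for which the adjusted p of the difference is given: MAMLD1 (0.000625), CHODL (0.00204) and ITIH5 (0.00557). PEG strength and surface differ with the line, so their parts in these differences cannot be told apart.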

How the results depend on the processing

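The count of 2738 line differences depended on the spread allowed for. It lay between 2596 and 3859 with RLE, total-count scaling, a 5 CPM filter, no filter, DESeq2 and limma voom; of the 2738, 2478 were among the 3859 without a filter and 2181 among the 2633 with voom. All 14 libraries in the fit gave 4869, a minimum log2 fold change of 1 gave 980, and leaving out 1 library gave 1064 to 3668. HepG2 calls (6459) came to 3405 with voom, 2196 with the minimum, 3335 from its own libraries and 5080 to 6475 without 1 library. Hep3B calls (2227) came to 4323 with all 14 libraries, 9393 with voom, 360 with the minimum, 9640 from its own libraries and 291 to 3532 without 1 library, the lowest without any Hep3B library. Genes called in opposite directions in the 2 lines (198) came to 316 without a filter, 497 with all 14 libraries, 517 with voom, 14 with the minimum, 439 with each line alone and 20 to 352 without 1 library. The cause of these shifts was not tested.

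Replicate numbers are shared by the groups but are not said to pair samples. Replicate differences correlated across genes at 0.716 between the dish groups, 0.0882 between the transwell groups and 0.0236 to 0.215 across lines. With a replicate block the line difference gave 3686 calls (2730 of the 2738 among them), HepG2 7521, Hep3B 3135 and opposite directions 299. With a replicate block within each line they were 8230, 10866, 8073 and 1465.

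Of 135 named genes called for the line difference, 108 were called in all 8 fits that leave out a library, and all 27 others lost their call without a Hep3B library, 8 of them also without a HepG2 library. Directions turned only in named genes that were not called either way, by line difference: with total counts IRX3 (-0.21), MDM2 (-0.26) and NIBAN1 (-0.062), with DESeq2 NIBAN1 (-0.11) and OAS1 (0.25), and without 1 library MDM2 (-0.36 to 0.48), OAS1 (-0.93 to 2.17), NIBAN1 (-2.34 to 1.24), VIM (-2.98 to 0.068) and IRX3 (-0.24 to 0.29). Depth limits genes with few reads in a group, and folds given for such genes rest on those reads. Examples are RARB (5 reads in isotonic HepG2), MSN and JCAD (7 each there) and IRX3 (8 in Hep3B in 3% PEG). NIBAN1 had 1 read in isotonic HepG2 and OAS1 had 1 in uncompressed Hep3B.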

Other observations

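Differences between the replicates of a dish group went with the GC content of the genes, at a Spearman rho of -0.699 in isotonic medium and -0.711 in 4% PEG, against 0.0597 and -0.312 in the transwell groups (15774 genes, which are not independent). The line difference itself had a rho of -0.114 with GC content. The part of GC content in the calls was not tested.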
